A study of Mus musculus with 8 samples.

Results

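The genes described here are the mouse zinc finger genes whose symbols start with Zfp, Zbtb, Zscan or Zkscan followed by a digit. Symbols were matched to the Ensembl identifiers of the deposited table, and 41 of its 3278 genes met the rule, out of 492 such genes in the annotation. RNA was sequenced from MIN6-K8, an insulin-secreting cell line from a mouse insulinoma that the labels call wild-type with background strain IT6. The 4 control libraries came from untreated cells and the 4 SeMet libraries from cells given 40 µM selenomethionine, the amino acid methionine with selenium in place of sulfur, for 6 days. The question is which of these genes SeMet moved, and how far. The line stands for beta cells only as a transformed culture. All 15 beta cell markers of the fixed list were in the table, with summed values of 2226947 to 2457163 in controls and 2005741 to 2227397 under SeMet.

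A zinc finger is a short protein loop held by a zinc ion. In the classical type a pair of cysteines and a pair of histidines bind the zinc, and a row of such fingers reads DNA. The genes fall into classes by the domain beside the fingers. A KRAB domain recruits the co-repressor Trim28, which brings histone methylation and silencing, often at retroelements. A BTB domain (the Zbtb genes) pairs 2 proteins and binds co-repressors such as Ncor1 and Bcor. A SCAN domain (the Zscan and Zkscan genes) mediates pairing between such factors.

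The deposited values are gene counts divided by 1 factor per library, called normalised counts here. The members took 36991 to 43497 reads per library, and all listed genes took 8544454 (control 1) to 11144953 (control 4). The authors listed genes as differing, by a rule that no source used here states, and nearly every listed gene passes a test, so counts of calls are not independent evidence of a response. Fold changes below are on the log2(value + 1) scale, with the limma estimate and its SE, and errors of means are SD over the 4 libraries of a group. A fall could reflect fewer cells of some kind or less RNA per cell, which cannot be told apart in bulk RNA. The labels call the libraries of a group replicates without naming separate cultures. Every p-value therefore reflects the spread among these 8 libraries alone, and that spread may be technical.

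Most of the listed zinc finger genes were lower under SeMet, nearly all by a small amount. Of 41 members, 35 fell and 6 rose in the limma fit at an adjusted p under 0.05 over the listed genes. Among the 3278 listed genes 53.0% fell and 47.0% rose, so that 3277, or 100%, passed in either direction. The median log2 fold change was -0.23 for the members and -0.13 for all listed genes, and 40 of the 41 members changed by less than 1.5-fold. Small changes were common in the whole list. Without regard to direction, the median size of the log2 fold change was 0.24 for the members and 0.25 for all listed genes. A stricter adjustment counts all 55450 annotated genes as tested, and its p-values are called strict below. Under it 24 members fell and 5 rose, beside 38.2% and 33.1% of the listed genes (71.4% in either direction). The values of the 2 groups did not overlap in 27 members that fell and in all 6 that rose, beside 45.6% and 40.3% of the listed genes (85.8% in either direction). The sum over the members ranged from 38475 to 42659 normalised counts in controls and from 35389 to 36911 under SeMet, so the groups did not overlap. As a share of the summed values of all listed genes, which is free of the authors' scaling, the members took 0.390 to 0.434% in controls and 0.375 to 0.400% under SeMet, and these ranges overlapped.

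**Figure D1:**
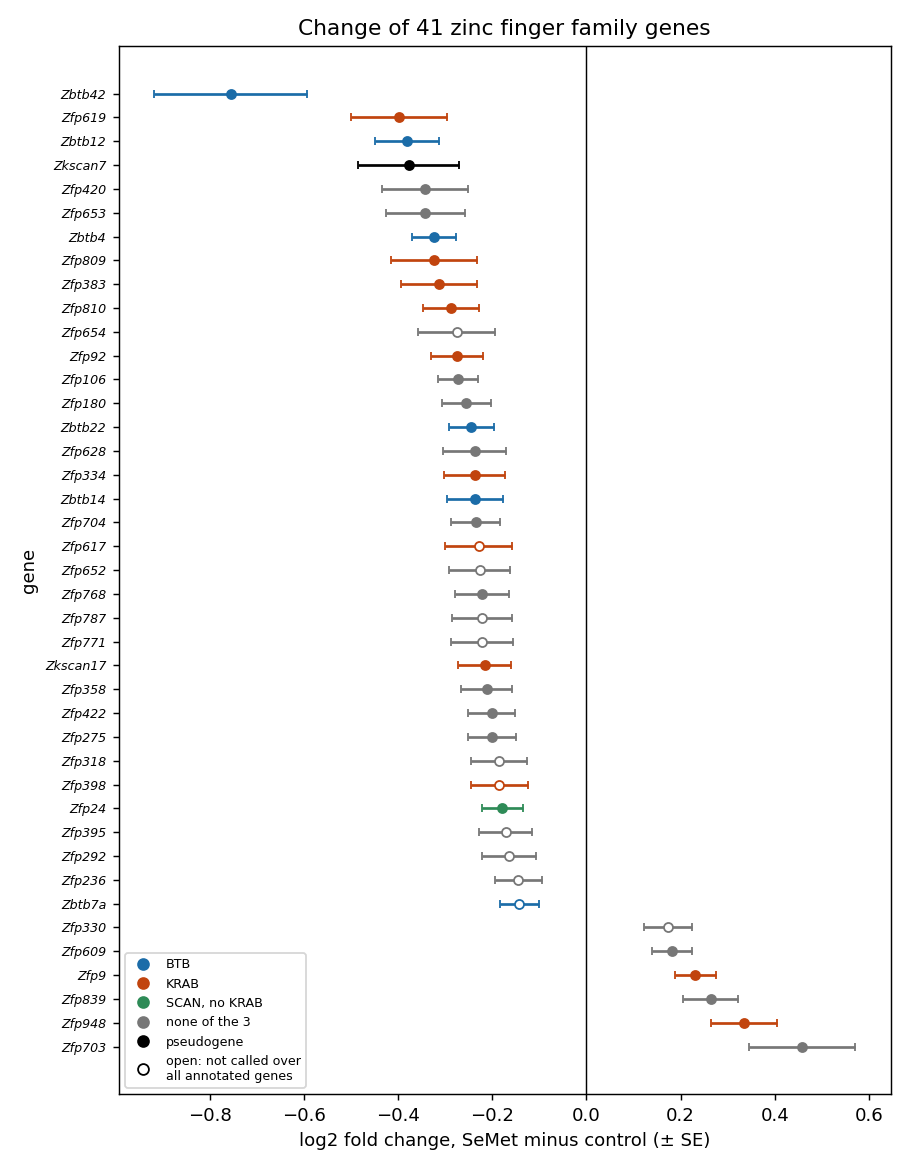
Log2 fold change of each of the 41 members (x axis, SeMet minus control, bars are SE from limma), one gene per line, coloured by the domain found in its coding sequence; open points did not pass when p-values were adjusted over all annotated genes. The points of 35 genes lie left of 0, from Zbtb7a at -0.14 to Zbtb42 at -0.76, and 6 lie right of it, up to Zfp703 at 0.46.

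All 6 listed Zbtb genes fell, of 42 annotated, beside 35 of all 41 members and 53.0% of all listed genes. Genes with other names were not searched for a BTB domain. The largest fall of any member was in Zbtb42, a BTB factor known in human from a lethal muscle contracture syndrome (ENSMUSG00000037638, chromosome 12, 112678828 to 112682747). It held 67.8, 104, 72.9 and 83.1 normalised counts in controls 1 to 4, against 40.2, 50.3, 56.7 and 44.5 in the SeMet libraries in the same order. Every SeMet library lay below every control, but the gene is the lowest of all members and its controls spread by 1.54-fold. Its log2 fold change was -0.76 ± 0.16 (limma adjusted p = 0.000404, strict limma adjusted p = 0.00684), and its mean normalised count fell 1.71-fold.

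Zbtb12, a gene of the major histocompatibility region (ENSMUSG00000049823, chromosome 17, 34879483 to 34896867), held 437, 466, 403 and 411 normalised counts in controls and 324, 329, 339 and 323 under SeMet. The SeMet libraries were close together and all below the controls, and the log2 fold change was -0.38 ± 0.07 (strict limma adjusted p = 0.00125). Exons of the coding gene C2 on the other strand cover 7.97% of its exon length. Zbtb4, which binds methylated DNA (ENSMUSG00000018750, chromosome 11, 69765912 to 69784023), held 2067, 2097, 1869 and 1888 in controls and 1601, 1554, 1549 and 1616 under SeMet. Its groups were apart too, with a log2 fold change of -0.32 ± 0.05 (strict limma adjusted p = 0.000121), the smallest p of any member.

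Zbtb22, also in the histocompatibility region (chromosome 17, 33915904 to 33919325), fell from 969 ± 19.7 to 818 ± 26.8 normalised counts without overlap. Exons of the coding gene Tapbp on the same strand cover 5.57% of its exon length. Zbtb14, a factor that binds GC-rich promoters (chromosome 17, 69383050 to 69391199), fell from 1165 ± 85.3 to 989 ± 78.4. Its groups overlapped, because SeMet library 2 held 1105 and control 4 held 1052, and exons of a noncoding gene on the other strand overlap 12.1% of its exon length. Zbtb7a, also called LRF, which represses fetal globin genes in red cell precursors (chromosome 10, 81135220 to 81152995), had 3092, 3202, 2956 and 2876 normalised counts in controls and 2674, 2646, 2816 and 2844 under SeMet. The groups did not overlap, by a margin of 2844 against 2876. The change, -0.14 ± 0.04 on the log2 scale, had a limma adjusted p of 0.0036 and missed the threshold with a strict limma adjusted p of 0.0609.

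Of the 11 listed genes in which the domain search found a KRAB domain, called KRAB genes here, 9 fell and 2 rose. Of all listed genes 53.0% fell and 47.0% rose. Their median log2 fold change was -0.24. Adjusted over all annotated genes, 7 fell and 2 rose, beside 38.2% and 33.1% of all listed genes. KRAB genes are the larger class in the annotation by the search used here, with 252 coding members of the 4 families against 213 others. Of the KRAB genes 4.37% were listed, against 13.6% of the others. Of all annotated genes, noncoding ones included, 5.91% were listed, and of the 465 coding genes of the 4 families 8.60%. The KRAB share lay below both, and the difference was not tested. The levels of unlisted genes were not analysed here. Zfp619 (ENSMUSG00000068959, chromosome 7, 39517766 to 39540420), whose predicted protein has 33 classical fingers, the most of any member, held 159, 152, 164 and 160.1 normalised counts in controls and 115, 121, 111 and 134 under SeMet. Its groups were apart, with a log2 fold change of -0.40 ± 0.10 (strict limma adjusted p = 0.0238).

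Zfp809, which in mouse embryonic cells silences murine leukaemia virus by binding its primer binding site and recruiting Trim28 (ENSMUSG00000057982, chromosome 9, 22225714 to 22243354), held 352, 297, 294 and 297 normalised counts in controls and 235, 219.8, 247 and 291 under SeMet. SeMet library 4 came just below the lowest control, and control 1 stood above the rest. The log2 fold change was -0.32 ± 0.09 (strict limma adjusted p = 0.0478). Its neighbour Zfp810 (chromosome 9, 22276748 to 22307648) fell from 509 ± 18.4 to 417 ± 13.7, with all SeMet libraries at or below 430.3 and all controls at or above 485. Zfp92, a KRAB factor described in mouse pancreatic islets, where it binds retroelements (chromosome X, 73411096 to 73428385), held 942, 883, 807 and 844 in controls and 684, 702, 751 and 733 under SeMet. Its groups were apart, and its log2 fold change was -0.27 ± 0.06 (strict limma adjusted p = 0.00418).

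Zfp383 fell from 342 ± 25.9 to 275 ± 22.5 and Zfp334 from 583 ± 44.7 to 494 ± 28.2 normalised counts, both without overlap. Zkscan17, which has SCAN and KRAB domains and binds the histone methyltransferase Nsd1, fell from 1084 ± 62.7 to 934 ± 66.6, and its groups overlapped. Exons of 4933439C10Rik on the other strand cover 13.5% of its exon length. Zfp617 (-0.23 ± 0.07 on the log2 scale) and Zfp398 (-0.19 ± 0.06) missed the threshold under the stricter adjustment, with strict limma adjusted p of 0.0838 and 0.114. The 2 KRAB genes that rose are given below. Zfp24, the listed member with a SCAN domain and no KRAB domain, is needed for myelination in mice. It fell from 1765 ± 60.0 to 1559 ± 53.7 without overlap, a log2 fold change of -0.18 ± 0.04.

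None of the 21 annotated Zscan genes was listed. The identifier listed under the symbol Zkscan7 (ENSMUSG00000111063, chromosome 9, 122903246 to 122914154) is annotated as a transcribed unprocessed pseudogene, while the coding gene of that symbol is a separate identifier that was not in the table. The pseudogene held 177, 139.8, 153 and 166 normalised counts in controls and 124, 112, 118 and 133 under SeMet. The groups were apart, with a log2 fold change of -0.38 ± 0.11 (strict limma adjusted p = 0.0487), but reads of the 2 copies may not have been told apart in the counting. The same holds for the KRAB genes, many of which have close copies nearby.

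**Figure D2:**
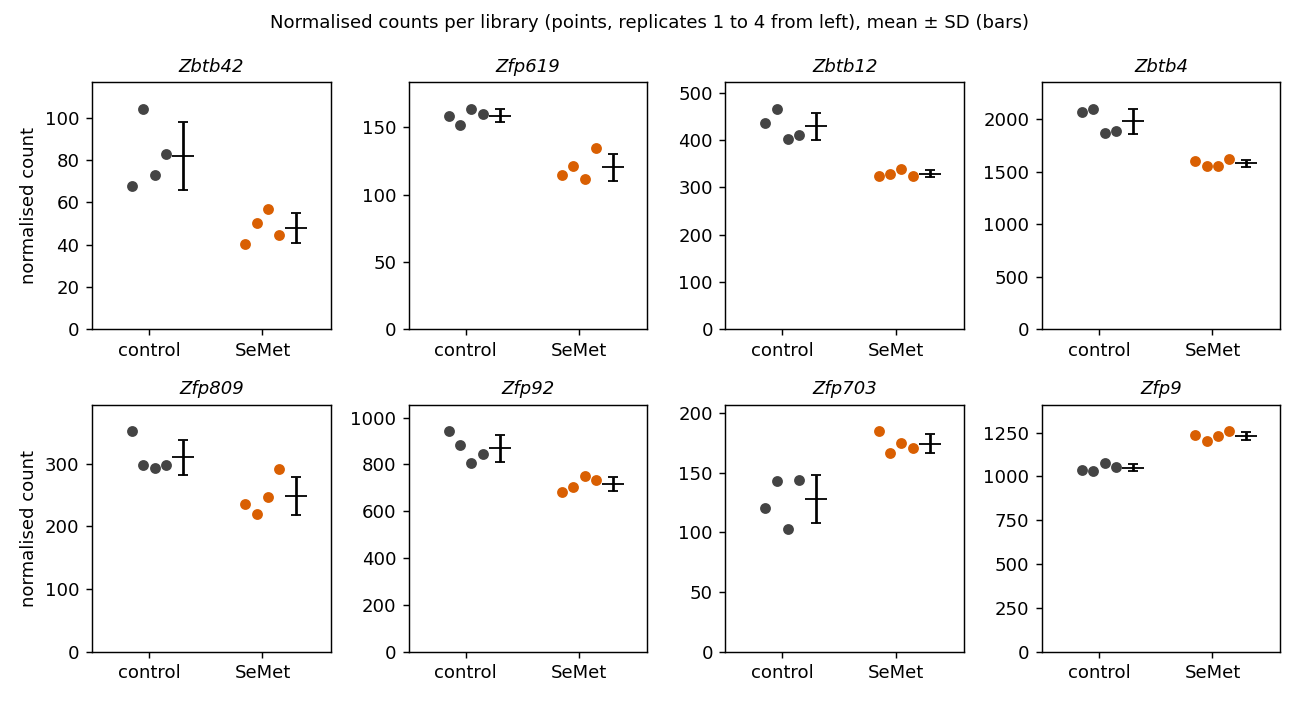
Normalised counts (y axis, from 0) of 8 members in the 4 control (grey) and 4 SeMet (orange) libraries, replicates 1 to 4 from left, with the mean and SD as bars. In each panel the groups are apart; Zfp809 comes closest to overlap, with a lowest control of 294 and a highest SeMet library of 291.

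The domain search used here covered annotated isoforms whose coding sequence starts with ATG, so a domain found only elsewhere would be missed. In the other 22 coding members it found no KRAB, SCAN or BTB domain. Of these 22, 18 fell and 4 rose, beside 53.0% and 47.0% of all listed genes. Adjusted over all annotated genes, 10 fell and 3 rose, beside 38.2% and 33.1% of all listed genes. The 11 of these with 7 or more classical fingers all fell (median log2 fold change -0.22), whereas 7 of the 11 with fewer fingers fell and 4 rose. Adjusted over all annotated genes, 6 of those with 7 or more fingers fell. Of those with fewer, 4 fell and 3 rose. That split by finger number was chosen after the values were seen. Zfp420, whose human counterpart restrains p53 (chromosome 7, 29859979 to 29877292), was placed among these 22 by the search alone, so its class is not settled. It held 224, 217, 258 and 202 normalised counts in controls and 173, 183, 173 and 178 under SeMet. Every SeMet library was below every control, with a log2 fold change of -0.34 ± 0.09 (strict limma adjusted p = 0.0339).

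Zfp653 fell from 338 ± 24.7 to 267 ± 27.4 and Zfp180 from 1034 ± 58.9 to 866 ± 34.0 normalised counts, both without overlap. Exons of the coding gene Gm49318 on the same strand cover 9.54% of the exon length of Zfp653. Zfp768, whose human counterpart binds an old class of repeats called MIR, fell from 518 ± 16.1 to 444 ± 8.75, and Zfp628, a regulator of spermatid genes in mice, from 537 ± 51.8 to 453 ± 6.28. Both had groups that were apart. Zfp358, Zfp422 and Zfp275 each fell by 0.20 to 0.21 on the log2 scale with an SE of 0.05, and Zfp787 and Zfp771 by 0.22 with SE of 0.06 and 0.07. Of these 5, Zfp787 and Zfp771 missed the threshold under the stricter adjustment (strict limma adjusted p = 0.0525 and 0.0669).

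Zfp106, an RNA-binding protein that motor neurons and muscle need in mice (ENSMUSG00000027288, chromosome 2, 120506820 to 120563843), held 3069.8, 2933, 2879 and 2726 normalised counts in controls and 2332, 2333, 2491 and 2445 under SeMet. Its groups were apart, with a log2 fold change of -0.27 ± 0.04 (strict limma adjusted p = 0.000302), while exons of the noncoding gene Gm26899 on the other strand overlap 26.1% of its exon length. Zfp704 (chromosome 3, 9427020 to 9610085), the member with the highest value, held 3479, 3371, 3101 and 3014 in controls and 2662, 2574, 3019 and 2756 under SeMet. SeMet library 3 lay just above control 4, so its groups overlapped, and the log2 fold change was -0.24 ± 0.05 (strict limma adjusted p = 0.0121). Exons of the noncoding gene C030034L19Rik on the other strand overlap 16.6% of its exon length.

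Zfp652, which in human cells represses together with the co-repressor CBFA2T3, went from 2245 ± 238 to 1912 ± 98.0 normalised counts with overlapping groups. Of its exon length 18.9% is overlapped by exons of Abi3 on the other strand and 11.8% by those of Phospho1 on the same strand, and reads of these genes may not have been told apart. Zfp654 also overlapped, at 930.4 ± 119 and 765 ± 58.5. Zfp318, which controls splicing of the IgD transcript in mouse B cells, had a log2 fold change of -0.19 ± 0.06, Zfp395 of -0.17 ± 0.06, Zfp292 of -0.16 ± 0.06 and Zfp236, which was first described in human kidney cells as a gene responding to glucose, of -0.14 ± 0.05. These 6 were called over the listed genes and missed the stricter threshold, with strict limma adjusted p from 0.0775 for Zfp652 to 0.169 for Zfp292. Control 1 was the highest control for 4 of the 6. Without it each still passed over the listed genes, as nearly every listed gene did.

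The 6 members that rose were Zfp703, Zfp948, Zfp839, Zfp9, Zfp609 and Zfp330. Zfp703, a co-repressor amplified in human luminal breast cancer (ENSMUSG00000085795, chromosome 8, 26977325 to 26981461), held 121, 143, 103 and 144 normalised counts in controls and 185, 167, 175 and 170.5 under SeMet. All SeMet libraries were above all controls, with a log2 fold change of 0.46 ± 0.11 (strict limma adjusted p = 0.0192) and a 1.37-fold rise of the mean normalised count. Exons of the antisense gene Gm45371 overlap 13.5% of it.

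The KRAB gene Zfp948 (chromosome 17, 21567008 to 21588699) held 422, 351, 433 and 420.2 normalised counts in controls and 507, 492, 506 and 540.1 under SeMet, a log2 fold change of 0.33 ± 0.07 (strict limma adjusted p = 0.00552). The KRAB gene Zfp9 (chromosome 6, 118461950 to 118479320) held 1036, 1031, 1078 and 1053 in controls and 1234, 1202, 1233 and 1258 under SeMet. Both genes had SeMet libraries wholly above the controls, and Zfp9 had a log2 fold change of 0.23 ± 0.04 (strict limma adjusted p = 0.00223).

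Zfp839 rose from 566 ± 33.8 to 679 ± 30.8 normalised counts. Zfp609, which works with the cohesin loader Nipbl in mouse cortical progenitors, rose from 1785 ± 64.9 to 2025 ± 62.5, with a log2 fold change of 0.18 ± 0.04 (strict limma adjusted p = 0.0129). Zfp330, a cysteine-rich nucleolar protein, rose from 785 ± 17.6 to 885 ± 46.1 and missed the stricter threshold (strict limma adjusted p = 0.0626). In all 3 the groups were apart. The pattern of a classical finger was absent from the coding sequences of Zfp703, Zfp839 and Zfp330, the members without any match to it. Of the 37 coding members with at least 1 match, 34 fell and 3 rose. This grouping, too, was chosen after the values were seen. It is not separate from the split by finger number, because Zfp703, Zfp839 and Zfp330 are among the 4 that rose there. Zfp106 and Zfp330 show that not every member by symbol is a DNA-binding factor.

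Per kb of exon, the highest level was that of Zbtb7a, with a control mean of 445 normalised counts per kb, followed by Zbtb22 with 363, Zfp358 with 293, Zfp24 with 281 and Zfp106 with 278. The SD over controls was 13.4 per kb for Zfp358, 9.56 for Zfp24 and 13.6 for Zfp106, so these 3 levels do not differ beyond their spread. The lowest were Zbtb42 with 23.5, Zfp619 with 26.6 and the Zkscan7 pseudogene with 28.2 per kb. The median was 152 per kb for the members, 107 for the KRAB genes, 246 for the Zbtb genes and 209 for all listed genes. The largest fall and the largest rise, of Zbtb42 and Zfp703, were both of members with low levels.

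**Figure D3:**
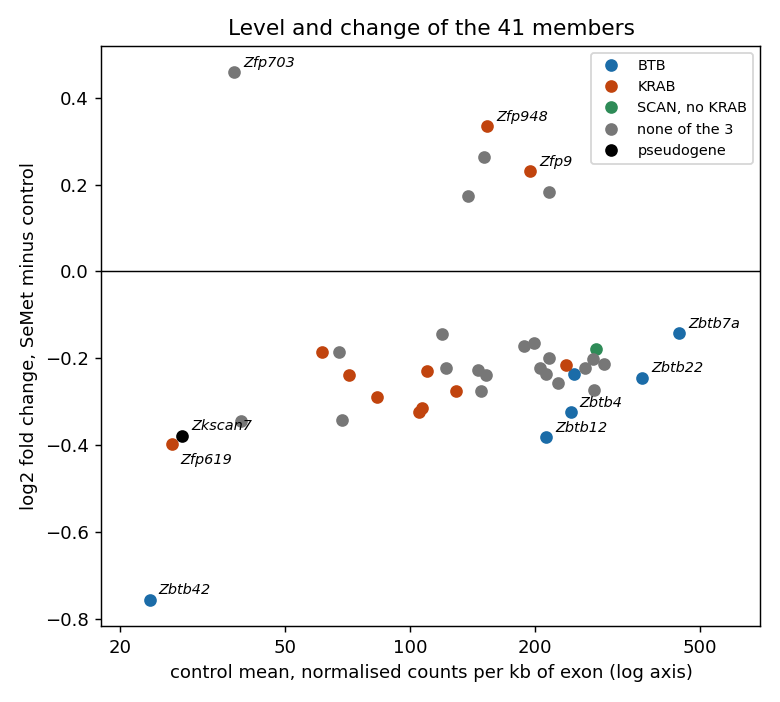
Control mean in normalised counts per kb of exon (x axis, log scale) against the log2 fold change (y axis, SeMet minus control) for the 41 members, coloured by domain. Zbtb42 (23.5 per kb) and Zfp703 (37.6 per kb) lie farthest from 0, at -0.76 and 0.46, and Zbtb7a (445 per kb) lies at -0.14.

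The members did not sit at 1 level in the controls. Over the 35 members that fell, the median difference from the control mean was 0.06 in control 1, 0.02 in control 2, -0.04 in control 3 and -0.07 in control 4 on the log2 scale, and between -0.28 and -0.22 in the 4 SeMet libraries. Control 1 was the highest control for 17 of the 35 and control 4 the lowest for 20. Among all listed genes that fell, control 1 was highest for 37.4% and control 4 lowest for 40.4%. Control 4 also held the most reads and control 1 the fewest, and the part of depth in this was not tested. All 4 SeMet libraries lay below control 4 for 27 of the 35 members, a count that was not made for all listed genes. Among all listed genes 1736 were called lower, and 1494 were lower with groups that did not overlap. Without control 1 all 41 members kept their direction and their call, and the median log2 fold change of the members was -0.21. Nearly every listed gene passed without control 1 as well, so this check says little about the members. The counts over all listed genes were 1731 lower and 1536 higher, against 1736 and 1541 with it. The 8 members whose groups overlapped were Zfp654, Zbtb14, Zfp704, Zfp652, Zkscan17, Zfp318, Zfp398 and Zfp236, all lower in mean under SeMet.

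**Figure D4:**
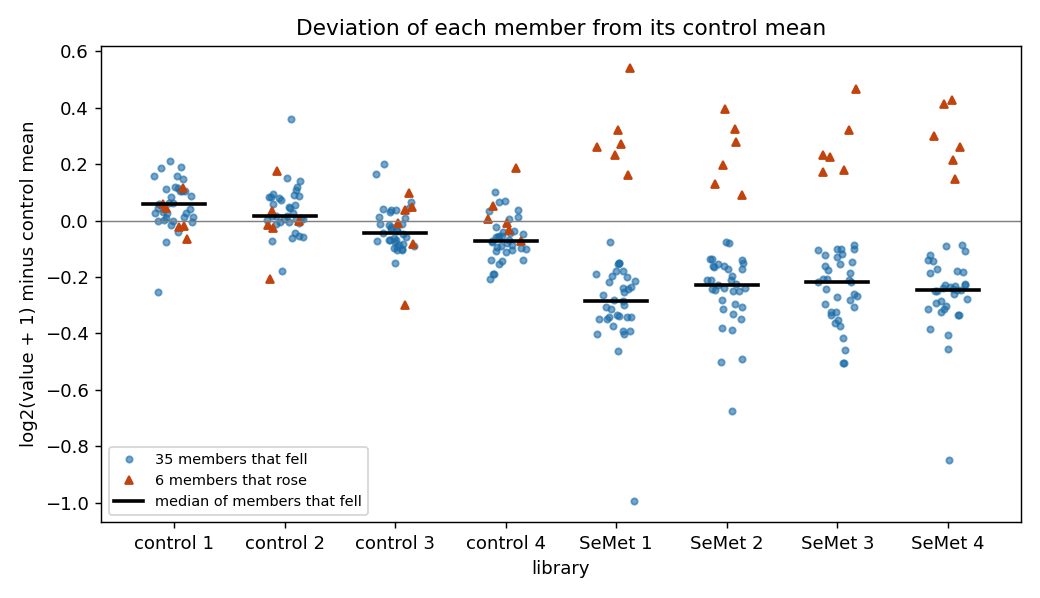
Difference of each member's log2(value + 1) from its own control mean (y axis) in the 8 libraries (x axis), with the 35 members that fell as circles, the 6 that rose as triangles and the median of those that fell as a bar. The bars go from 0.06 in control 1 to -0.07 in control 4 and lie between -0.28 and -0.22 in the SeMet libraries.

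The members lay on 15 chromosomes, with 8 on chromosome 7, all lower, beside 56.5% of the 260 listed genes of that chromosome. Of 5 neighbouring pairs of members less than 200 kb apart, all 5 had both genes lower. Zfp420 and Zfp383 lie 30.9 kb apart on chromosome 7, with log2 fold changes of -0.34 and -0.31. Zfp809 and Zfp810 lie 33.4 kb apart on chromosome 9, at -0.32 and -0.29, and Zfp653 lies 154 kb before Zfp809, at -0.34. Zfp275 and Zfp92 lie 52.0 kb apart on chromosome X, at -0.20 and -0.27, and Zfp771 and Zfp768 lie 88.0 kb apart on chromosome 7, both at -0.22. With 35 of 41 members lower, most pairs would have both genes lower however they were placed.

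The promoters of 3 members that fell (Zbtb42 and Zfp619, the largest falls of a BTB and a KRAB gene, and Zbtb4, the fall with the smallest p) and of Zfp948, a KRAB gene that rose, are shown as the 250 bases before the RefSeq start, 5′ to 3′ on build GRCm38.p6, all on the plus strand. They come from chr12:112678590-112678839, chr7:39517516-39517765, chr11:69765662-69765911 and chr17:21566728-21566977. Capitals mark the GC box GGGCGG or its reverse complement CCGCCC, the core that Sp and Klf factors bind.
Zbtb42: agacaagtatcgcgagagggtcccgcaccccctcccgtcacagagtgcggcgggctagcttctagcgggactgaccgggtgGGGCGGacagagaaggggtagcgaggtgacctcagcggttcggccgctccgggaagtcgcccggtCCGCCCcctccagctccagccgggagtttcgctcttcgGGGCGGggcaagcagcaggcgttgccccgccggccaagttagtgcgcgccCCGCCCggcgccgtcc
Zfp619: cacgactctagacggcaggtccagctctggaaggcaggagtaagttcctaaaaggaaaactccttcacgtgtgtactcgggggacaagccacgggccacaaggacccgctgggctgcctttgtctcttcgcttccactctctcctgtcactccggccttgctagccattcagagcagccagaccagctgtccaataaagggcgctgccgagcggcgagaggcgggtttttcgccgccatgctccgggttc
Zbtb4: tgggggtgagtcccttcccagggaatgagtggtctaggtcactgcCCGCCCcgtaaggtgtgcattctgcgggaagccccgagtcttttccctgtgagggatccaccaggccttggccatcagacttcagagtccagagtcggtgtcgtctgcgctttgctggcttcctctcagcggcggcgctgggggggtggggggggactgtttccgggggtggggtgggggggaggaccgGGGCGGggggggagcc
Zfp948: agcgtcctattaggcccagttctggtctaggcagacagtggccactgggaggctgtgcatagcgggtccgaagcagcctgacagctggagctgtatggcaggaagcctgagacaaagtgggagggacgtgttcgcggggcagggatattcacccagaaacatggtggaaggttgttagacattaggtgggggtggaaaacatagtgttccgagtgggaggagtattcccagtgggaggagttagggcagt
The Zbtb42 window held 4 GC boxes and 30 CG pairs, that of Zbtb4 2 and 13, and those of Zfp619 and Zfp948 no GC box, with 16 and 7 CG pairs.

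RefSeq promoters were found for 32 of the 40 coding members, taking the outermost start of each gene. For Zfp652, Zkscan17, Zbtb12 and Zfp617 that start lay 36394, 20111, 15076 and 14190 bases from the GENCODE gene start, and for Zbtb7a 1051. Their windows are kept in the counts below. A GC box on either strand was in 14 of the 29 that fell and in 2 of the 3 that rose. It was in 62.8% of the 2517 listed genes with a promoter and in 33.0% of all 27025. The ETS core CCGGAAGT was in 3 of the 32 (9.38%), beside 4.37% of listed and 2.92% of all promoters, and ACGTG, the core of the hypoxia element, in 6 (18.8%), beside 23.0% and 16.5%. The motif of Yy1 was in none of the 32 and in 0.516% of listed promoters. The median GC content was 60.4% for the members and 60.8% for listed genes.

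Genes that work with these factors moved in both directions. The background for the counts below is all listed genes, with 53.0% lower and 47.0% higher (38.2% and 33.1% over all annotated genes). Of 30 genes of the KRAB co-repressor and heterochromatin machinery, 8 were listed, 4 rose and 4 fell (3 and 2 over all annotated genes), and their median log2 fold change was 0.02. Trim28 and Setdb1, the core of KRAB repression, were not among the listed genes. Atf7ip, which stabilises Setdb1, held 863, 866, 815 and 845 normalised counts in controls and 543, 580.3, 663 and 619.8 under SeMet. All SeMet libraries were well below the controls, with a log2 fold change of -0.50 ± 0.06 (strict limma adjusted p = 1.52e-05). Trim24 fell from 988 ± 22.7 to 861 ± 42.5, while the histone methyltransferase gene Suv39h2 rose from 179.9 ± 9.47 to 225 ± 8.26. The listed HUSH complex genes went in opposite directions. Pphln1 rose from 2379 ± 36.0 to 2742 ± 73.2, and Fam208a fell from 1011 ± 62.9 to 900.2 ± 24.0. Fam208a missed the stricter threshold (strict limma adjusted p = 0.0837).

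Of 27 BTB partners and co-repressors, 7 were listed, 5 fell and 2 rose (2 and 2 over all annotated genes), with a median of -0.13. Mta1 and Rcor1, scaffold subunits of deacetylase complexes, fell by 0.18 ± 0.04 and 0.16 ± 0.04 on the log2 scale, and Rbbp7 and Gatad2a, of the same kind of complex, rose by 0.21 ± 0.04 and 0.20 ± 0.04. Of 136 classical zinc finger factors with other names, 21 were listed, 14 fell and 7 rose (10 and 5 over all annotated genes), with a median of -0.16. Klf5 fell from 263 ± 13.8 to 173 ± 16.5 normalised counts and Glis3, which beta cells need for insulin gene expression, from 1502 ± 113 to 1156 ± 87.8. The architectural factor Ctcf fell by 0.17 ± 0.04 and Yy1 by 0.13 ± 0.04 on the log2 scale. Klf10 rose by 0.50 ± 0.05, Hivep3 by 0.32 ± 0.05 and Mecom, from a control mean of 14.3 ± 2.98 normalised counts, by 0.93 ± 0.26. No Zfp36 gene, the zinc finger family that binds AU-rich RNA, was listed, and of 30 genes of that RNA decay route 3 were listed and fell, Pabpc1, Cnot7 and Cnot3, with 2 of the 3 passing over all annotated genes.

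Of the other cell type markers of the fixed list, 4 of 9 for other islet cells were listed, with sums of 1162 to 1284 normalised counts in controls and 1745 to 1949 under SeMet, and their part in the results above was not tested. Of 10 acinar, 6 endothelial and 7 immune markers none was listed. Of 6 duct markers Krt7 was listed, at 9518 to 10350.1 in controls and 10794 to 11739.5 under SeMet, and of 7 stromal markers Col1a1, at 11.1 to 20.1 and 2.78 to 9.57.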

How the data were processed

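RNA-seq libraries of untreated and SeMet-treated MIN6-K8 cells (4 each) were grouped by title. Reads were aligned with STAR and counted with featureCounts on mm10, per the submitters' processing notes. The sources used here give no settings, annotation or scaling tool, and no rule for how the listed genes were selected. The deposited signal values are gene counts divided by 1 factor per library: in each library all values were whole-number steps of a common unit (tolerance 1e-06).

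With limma 3.58.1 (R 4.3.3, statmod 1.5.0; trend and robust settings, group as the only term), log2(value + 1) was fitted for all 3278 genes without a filter. P-values were adjusted by Benjamini-Hochberg over these genes and, as the stricter alternative, over 55450 annotated genes, with unlisted genes taken as not differing. Symbols (3276 identifiers matched), positions and exon lengths came from GENCODE M21 (GRCm38, the assembly of mm10). Exons of other genes overlap those of 14 members, for 6 of them over more than 10% of the exon length. Smaller overlaps are given for some members only. Domains were found with jackhmmer (HMMER 3.4, E-value 0.001, at most 5 rounds) in translated GENCODE isoforms, in place of the RefSeq proteins planned, seeded with stretches of Zfp809 (KRAB), Zfp24 (SCAN) and Zbtb14 (BTB). Classical fingers were counted by the spacing of cysteines and histidines in the longest isoform.

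Named genes were up to 12 largest rises and 12 largest falls with a mean of at least 50, the 8 highest members, every Zbtb and Zkscan member, members that lost a call or overlapped under an alternative, and listed genes of the 4 gene lists. Outside this rule, Zfp180, Zfp628, Zfp334, Zfp768, Zfp358, Zfp422 and Zfp275 are named to account for every member. Members and lists were chosen with earlier results of these data known. Alternatives were a pseudocount of 5, a mean of at least 50, median ratio rescaling, plain limma, the stricter adjustment, a replicate block and leaving out each library.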

Additional observations from a re-analysis of the deposited data

Results flagged for a closer look

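In 4 of the 82 groups of 4 libraries examined (41 members in 2 groups), 1 library stood far from the other 3, about the 1 in 20 that chance gives. Zfp809 was at 352 normalised counts in control 1, against 294 to 297 in the other controls. Zfp948 was at 351 in control 2, against 420.2 to 433 in the others. Zfp180 was at 815 in SeMet library 1, against 878 to 888. Zfp628 was at 463 in SeMet library 3, against 449 to 452.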

How the results depend on the processing

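All 41 members kept their direction under every alternative run, and 35 fell and 6 rose at an adjusted p under 0.05 with another pseudocount, with a filter, with plain limma, with the replicate block and without any 1 library (35 to 35 and 6 to 6). Calls over all listed genes hardly moved either, with 1728 to 1734 lower and 1529 to 1538 higher without any 1 library. The libraries share only a number: deviations of same-numbered libraries correlated by -0.01 to 0.15, 1 of 4 SeMet libraries correlated best with its own number, and the block changed no member's call. Adjusted over all annotated genes, 12 members no longer passed, 17 of the 27 Zfp genes that fell did, as did 10 of the 18 without KRAB, SCAN or BTB, 2 genes of the KRAB machinery and 2 BTB partners that fell. Rescaling by the median ratio raised the median of all listed genes by 0.04 and moved the members' median to -0.18, and Zfp236 no longer passed (limma adjusted p = 0.0504). The depth limits single genes at low levels, such as Zbtb42.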
